A study of Mus musculus with 4 samples.

Results

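Dividing XN1 cells are the 813 of 3905 XN1 neural stem cells (20.8%, exact 95% interval 19.6 to 22.1%) in which at least 1 read of both *Mki67* and *Top2a* was counted. They were chosen by these measured values, and were set against the 2420 XN1 cells with no read of either gene. These 2420 cells are called non-dividing below, which names the rule only. Cells in G1 or early S phase may be among them, and whether any had left the cycle was not tested. The 219 cells with *Mki67* alone and the 453 cells with *Top2a* alone were left out of that comparison. The whole series holds 15255 cells in its normalized tables.

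The series compared 4 neural stem cell (NSC) lines derived from mouse epiblast stem cells (EpiSCs) of the 129/Sv strain, with 1 single-cell library for each line. XN1 was grown with 10 µM XAV939, a tankyrase inhibitor that lowers Wnt signaling, from a supplier whose product formed crystals in the medium. XN4 was grown with 10 µM XAV939 from another supplier, KN1 with no addition, and CN4 with 2 µM CHIR99021, a GSK3 inhibitor that raises Wnt signaling. All 4 lines, controls included, were supplied with EGF and FGF2 at 10 ng/ml each, were growing when collected, and were kept in a preserving solution before capture. With 1 library for a line, no test across cultures was possible, and all comparisons below describe cells of that library.

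Cells that divide copy their DNA in S phase and separate it in mitosis. *Mki67* encodes a protein that coats mitotic chromosomes and is made throughout the cycle of proliferating cells, and *Top2a* encodes the topoisomerase that untangles sister DNA. Transcripts of replication genes are known to accumulate from late G1 into S phase under E2F factors. Those of mitotic genes accumulate in G2 and mitosis, many through promoters with a cell cycle homology region (CHR) and CCAAT boxes. Neural stem cells kept in EGF and FGF2 divide asynchronously, so a culture holds cells at all of these steps.

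The promoters of both genes of the rule and of 3 mitotic genes that were higher in dividing cells are shown for their CHR letters (TTTGAA) and CCAAT letters, read on either strand. *Mcm6* and *Hells*, of the replication list, are shown for their E2F letters. *Cxcl1*, the gene with the lowest ratio, is shown for contrast and held none of these letters in the stretch shown. Each sequence below is the 120 bases just before the RefSeq start of the gene in GRCm38.p6, 5′ to 3′ on the strand of the gene, with motif letters in capitals. The stretches lie at chr7:135716380-135716499 (minus strand, *Mki67*), chr11:99024190-99024309 (minus, *Top2a*), chr4:118437344-118437463 (minus, *Cdc20*), chr10:69352913-69353032 (minus, *Cdk1*), chr2:164769809-164769928 (plus, *Ube2c*), chr1:128359706-128359825 (minus, *Mcm6*), chr19:38930870-38930989 (plus, *Hells*) and chr5:90891125-90891244 (plus, *Cxcl1*).
Mki67: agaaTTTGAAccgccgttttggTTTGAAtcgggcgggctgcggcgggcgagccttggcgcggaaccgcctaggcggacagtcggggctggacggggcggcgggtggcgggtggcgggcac
Top2a: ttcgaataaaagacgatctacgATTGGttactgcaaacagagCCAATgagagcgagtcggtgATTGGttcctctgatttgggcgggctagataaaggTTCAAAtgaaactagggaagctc
Cdc20: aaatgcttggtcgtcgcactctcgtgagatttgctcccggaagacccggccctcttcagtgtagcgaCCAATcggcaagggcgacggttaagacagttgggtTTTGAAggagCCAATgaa
Cdk1: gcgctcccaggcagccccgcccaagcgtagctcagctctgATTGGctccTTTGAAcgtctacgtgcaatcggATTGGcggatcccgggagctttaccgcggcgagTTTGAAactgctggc
Ube2c: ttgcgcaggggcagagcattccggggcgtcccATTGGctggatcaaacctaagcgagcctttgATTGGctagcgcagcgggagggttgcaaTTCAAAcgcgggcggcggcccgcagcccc
Mcm6: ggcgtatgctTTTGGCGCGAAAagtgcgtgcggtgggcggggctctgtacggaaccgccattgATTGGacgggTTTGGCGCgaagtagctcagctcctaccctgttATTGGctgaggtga
Hells: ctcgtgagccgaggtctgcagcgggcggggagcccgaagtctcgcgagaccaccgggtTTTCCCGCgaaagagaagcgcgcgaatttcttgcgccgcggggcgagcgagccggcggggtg
Cxcl1: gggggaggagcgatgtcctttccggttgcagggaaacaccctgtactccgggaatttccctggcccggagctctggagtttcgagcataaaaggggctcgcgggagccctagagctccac

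In *Top2a*, the CHR letters began 23 bases before the start, and CCAAT letters began 58, 78 and 98 bases before it. In *Mki67*, CHR letters began 98 and 116 bases before the start, and the stretch held no CCAAT letters. *Mcm6* held CCAAT letters too, 14 and 57 bases before the start. In *Cdc20*, the CHR letters began 18 bases and CCAAT letters 8 and 53 bases before the start. In *Ube2c*, the CHR letters began 29 bases and CCAAT letters 57 and 88 bases before the start. Of the 102 genes on the mitosis lists, 88 had a promoter in the table, and 53.6% of their 97 promoters held CHR letters, against 17.9% of all 32851 promoters and 11.8% of the 8317 promoters of tested genes. CHR and CCAAT letters stood together in 42.3% of the mitosis promoters and in 6.95% of all promoters. The E2F letters searched were TTTCCCGC, TTTGGCGC, TTTCGCGC and TTTGCCGC on either strand, and in *Mcm6* some of these matches overlapped. They occurred in 35.2% of the 54 promoters of the replication list (44 of 54 genes matched) and in 2.26% of all promoters. Among the 1010 genes higher in dividing cells, defined below, 829 had a promoter, and 20.5%, 48.6% and 11.2% of their promoters held CHR, CCAAT and E2F letters, against 9.14%, 32.1% and 1.46% for the 720 lower genes (556 matched) and 11.8%, 38.2% and 4.36% for tested genes. These shares refer to windows from 250 bases before to 50 bases after the start. A match is a run of letters and was not examined for binding.

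The 2 groups of cells differed in read depth. Dividing cells held a median of 5649 reads and 2641 genes, and non-dividing cells 4398 reads and 2153.5 genes. The share of dividing cells was 12.3% in the tenth of XN1 cells with the fewest reads and 42.5% in the tenth with the most. Each cell was therefore thinned at random to 3200 reads, which kept 704 dividing and 1883 non-dividing cells and left out 109 and 537 shallower ones. At this fixed depth the medians were 1874 genes in dividing cells (quartiles 1827 to 1913) and 1783 in non-dividing cells (1736 to 1828), so the dividing cells still showed 1.05 times as many genes. When the rule was applied to the thinned reads, 18.7% of 3129 XN1 cells were dividing (17.3 to 20.1%).

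Levels below are mean reads per 10,000 reads of a cell after thinning, and a share is the percentage of thinned cells with at least 1 read. Reads were counted, not molecules, so that the intervals given cover counting error only and are too narrow. A gene was tested when the mean of the 2 shares was at least 5%, and was called higher or lower when its mean levels differed at least 1.5-fold. These calls are descriptions of 1 library. The groups were formed from 2 genes of the same cells, so that genes known to accompany them had to differ.

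The groups of the rule were graded. Over the 102 genes of the mitosis lists (mitotic cyclins and kinases, spindle, kinetochore, and the anaphase-promoting complex), a thinned dividing cell held a median of 52 reads in sum (quartiles 30 to 83). A cell with neither gene held 6 (4 to 8), a cell with *Top2a* alone 8, and a cell with *Mki67* alone 10. The 54 genes of the replication list gave medians of 15, 2, 4 and 4 reads in the same order. Just inside the rule, the 38 cells with exactly 1 read of each gene had a mitosis median of 13, of which 25 were deep enough to be thinned. Thus the cells nearest the border were close to those just outside it. Of the 1883 non-dividing cells, 6 (0.319%) reached the lower quartile of the dividing cells in mitosis reads, whereas 107 (5.68%) reached it in replication reads. The plot of summed reads shows these steps.

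**Figure D1:**
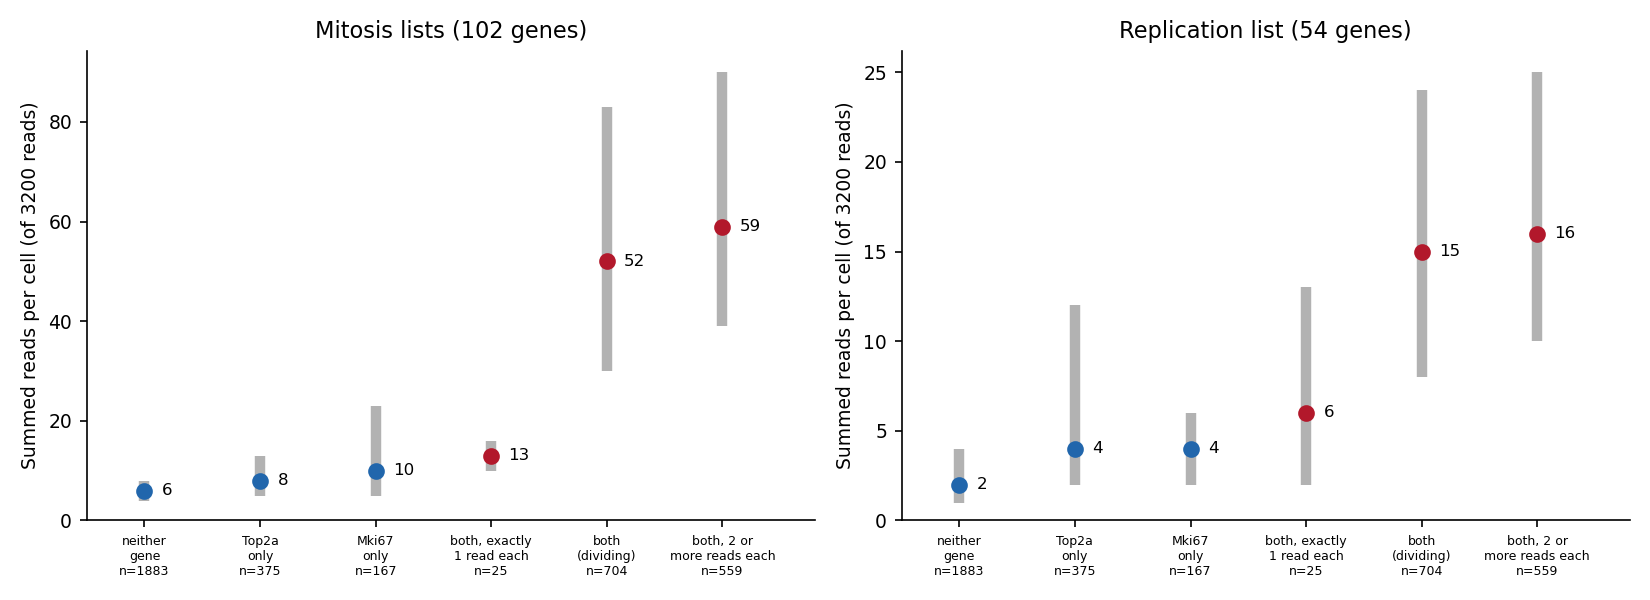
Summed reads per thinned XN1 cell (3200 reads) over the mitosis lists (left) and the replication list (right), by group of the rule. Points are medians over cells, bars run from the lower to the upper quartile, and n is the number of thinned cells. The medians of 52 and 15 reads in dividing cells stand above those of 6 and 2 in cells with neither gene, with the single-gene and 1-read groups between them.

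Across the transcriptome, 8071 genes were tested. Of these, 1010 (12.5%) were called higher in dividing cells and 720 (8.92%) lower, while the median log2 ratio of all tested genes was 0.01. The ratios ran from 6.92 for *Nek2* to -3.29 for *Cxcl1*. The plot of level against ratio shows the cell cycle genes above the body of genes. Their distance was fixed in part by the rule and the filter, since 73 of 97 tested mitosis genes passed the filter on dividing cells alone. *Cxcl1* passed it on non-dividing cells alone.

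**Figure D2:**
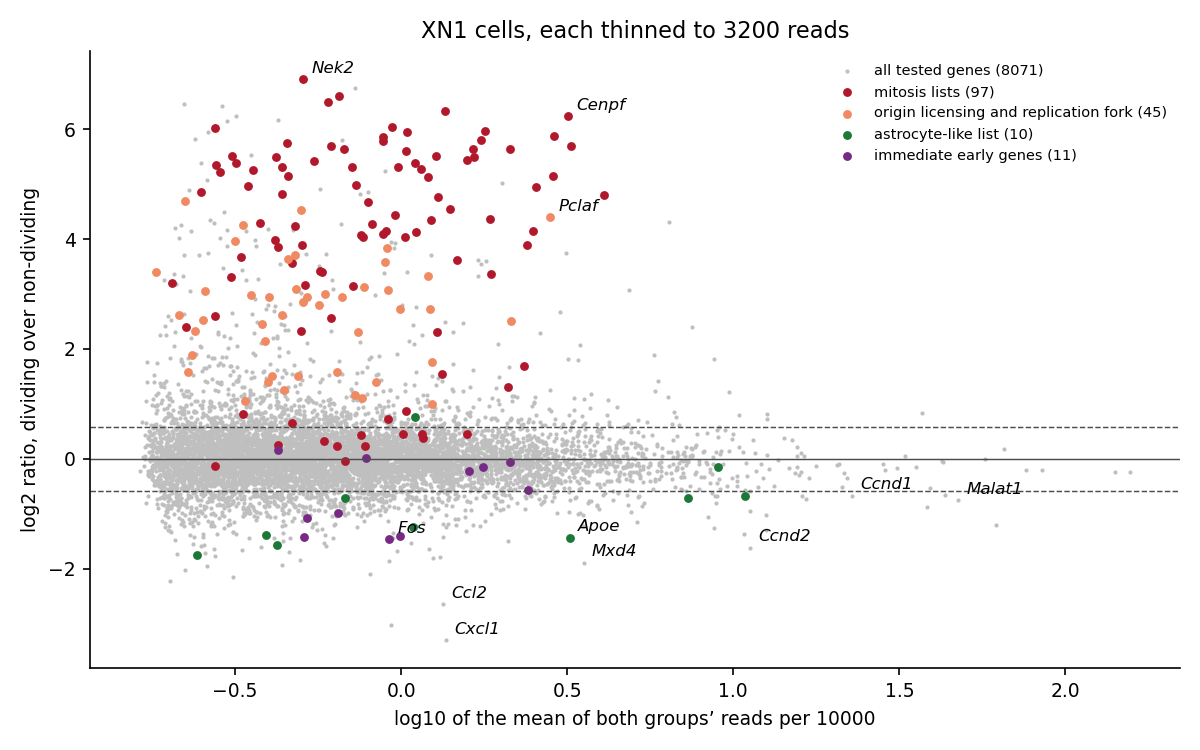
Log2 ratio of mean reads, dividing over non-dividing XN1 cells, against the log10 mean level of both groups for 8071 tested genes. Colors mark 4 gene lists and dashed lines the 1.5-fold limits; the mitosis genes reach 6.92 and the lowest gene, *Cxcl1*, lies at -3.29.

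The mitotic cyclins and kinases were higher throughout. Of 22 measured genes, 21 were tested and all 21 were called higher, beside 12.5% of all tested genes, with a median log2 ratio of 5.27. However, 19 of the 21 passed the filter on the dividing cells alone, so they had to differ. *Ccna2*, the cyclin of S phase and G2, was detected in 71.0% of dividing and 2.55% of non-dividing cells, with levels of 5.66 and 0.0963 reads (58.8-fold). *Cdk1*, its kinase partner and the driver of mitosis, was detected in 65.8% and 4.35% of cells, at levels of 4.95 and 0.159. *Ccnb1*, the mitotic cyclin, was detected in 50.1% and 1.54%, at 3.41 and 0.0614. The polo kinase *Plk1* differed 58.1-fold, the Aurora kinases *Aurkb* and *Aurka* 97.0-fold and 53.8-fold, and the centrosome kinase *Nek2* 121-fold. *Nek2* rested on 226 reads in dividing and 5 reads in non-dividing cells (log2 interval 5.67 to 8.55). Its log2 ratio of 6.92 was 5.96 in the further XN1 cells described below. That of *Aurkb* (6.60) was 5.58 with the rule on thinned reads. The smallest ratio on the list was that of *Cks1b*, a small CDK-binding protein, with shares of 45.3% and 11%.

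Genes of the spindle and of cytokinesis were mostly higher too. All 29 were tested and 28 (96.6%) were called higher, beside 12.5% of all tested genes, with a median log2 ratio of 5.15. However, 25 of the 29 passed the filter on dividing cells alone, so they had to differ. *Prc1*, which bundles the central spindle, had levels of 6.39 and 0.123 reads and shares of 69.3% and 3.40%. *Tpx2*, which activates Aurora A at spindle microtubules, had shares of 69.2% and 4.09%. *Hmmr*, *Aspm*, *Kif11* and *Cep55* differed 62.2-fold, 80.8-fold, 61.5-fold and 89.9-fold. *Ckap5*, a microtubule polymerase used in interphase too, was already present in 29.6% of non-dividing cells and in 55.3% of dividing cells. *Numa1*, a spindle pole protein held in the interphase nucleus, was not called, with shares of 21.7% and 17.1%.

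At the kinetochore and centromere, 28 of 32 genes were tested and all 28 were called higher, beside 12.5% of all tested genes. Their median log2 ratio was 4.32, but 27 of the 28 passed on dividing cells alone and so had to differ. *Cenpf* differed 75.8-fold, with a share of 66.8% in dividing cells (levels 6.29 and 0.0830). The motor *Cenpe*, the survivin gene *Birc5* and the outer kinetochore genes *Nuf2* and *Knl1* were detected in 54.4%, 57.2%, 38.2% and 34.9% of dividing cells. *Cenpw*, an inner kinetochore gene, had the smallest ratio, at log2 2.33. The untested genes *Cenpk*, *Cenpu*, *Oip5* and *Ska1* all had a read in both groups.

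The anaphase-promoting complex, which tags mitotic proteins for destruction, held both called and uncalled genes. Of its 19 tested genes, 9 (47.4%) were called higher, beside 12.5% of all tested genes, and 10 were not called. The coactivator *Cdc20* differed most (46.9% and 1.91% of cells, log2 5.44), followed by the inhibitor *Fbxo5* (20.3% and 0.797%, log2 4.82), the ubiquitin-conjugating enzyme *Ube2c* (67.8% and 7.17%, log2 4.81) and its partner *Ube2s* (log2 1.69). The other coactivator *Fzr1*, used in late mitosis and G1, had a log2 ratio of 1.55. Among the core subunits not called, *Anapc5* had levels of 1.83 and 1.33, *Anapc4* 0.670 and 0.687, and *Anapc10* 0.262 and 0.287. *Cdc20* and *Fbxo5* passed the filter on dividing cells alone and so had to differ. *Cdc27*, *Cdc23*, *Anapc7* and *Anapc15* were the core subunits past the limit, at log2 0.65 to 0.86, and in the further XN1 cells described below *Anapc7* was under it (0.48). Over all 102 mitosis genes, each of which had a read in both groups, 100 had a ratio above 1 and 2 below.

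Chromosome structure genes differed with wider range. All 31 were called higher (median log2 2.05), beside 12.5% of all tested genes. Of them, 8 passed on dividing cells alone and so had to differ. The condensin subunits *Smc2* and *Smc4* had levels of 5.83 against 0.436 and 8.66 against 1.03, and *Ncapg* differed at log2 5.23. *Esco2*, which acetylates cohesin in S phase, differed 72.2-fold (20.5% and 0.372% of cells). It passed the filter on dividing cells alone and so had to differ. The cohesin subunits *Rad21*, *Smc1a* and *Smc3* differed at log2 1.82, 1.03 and 0.90. The high mobility group gene *Hmgb2* was detected in 85.8% and 13.0% of cells, *Hmgb1* in 86.2% and 59.1%. *H2afz*, a histone variant made outside S phase as well, had levels of 13.7 and 3.89.

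In the replication machinery, 45 of 54 genes were tested and all 45 were called higher, beside 12.5% of all tested genes. Their median log2 ratio was 2.73, lower than that of the mitosis lists (4.37). Of the 45, 27 passed on dividing cells alone, as did 73 of the 97 tested mitosis genes. The order of the 2 medians was therefore fixed in part by the rule and the filter. The PCNA-binding protein *Pclaf* was detected in 72.0% and 6.48% of cells and the sliding clamp *Pcna* in 55.3% and 14.9%, with *Pcna* levels of 3.65 and 0.641. The helicase subunits *Mcm2*, *Mcm3*, *Mcm4*, *Mcm5*, *Mcm6* and *Mcm7* lay between log2 2.72 and 3.58. *Dnmt1*, the maintenance methyltransferase, had levels of 2.12 and 0.319, and its targeting factor *Uhrf1* 1.70 and 0.118. The smallest ratio was that of the clamp loader subunit *Rfc1* (1.65 and 0.831). The 9 untested genes, among them *Cdc6*, *Orc1* and *Cdc45*, were rare in both groups, and all had a ratio above 1.

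Of the genes of nucleotide supply, 17 of 18 (94.4%) were called higher (median log2 1.67), beside 12.5% of all tested genes. However, 8 of the 18 passed the filter on dividing cells alone and so had to differ. Ribonucleotide reductase subunits *Rrm2* and *Rrm1* had shares of 57.1% against 2.97% and 56.8% against 8.28%, and thymidine kinase *Tk1* 25.9% against 1.17%. Purine synthesis genes differed less, with *Paics* at levels of 3.20 and 2.09. *Nme1* was not called (2.69 and 2.28). Of the recombination and checkpoint genes, 18 of 20 were tested and all 18 were called higher (median log2 3.52), beside 12.5% of all tested genes. Among them were *Brca1* (18.8% and 1.06% of cells) and *Rad51ap1* (15.3% and 0.690%). However, 15 of these 18 passed on dividing cells alone, so they had to differ. All 18 nucleotide genes and all 20 recombination genes had a ratio above 1.

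The regulators of G1 and of cycle exit moved in different directions. Of 8 G1 genes, 3 (37.5%) were called higher and 2 (25%) lower, beside 12.5% and 8.92% of all tested genes. Of the D-type cyclins, which respond to growth factors, *Ccnd2* and *Ccnd1* were lower and *Ccnd3* was not called, with levels of 0.861 and 0.838. *Ccnd2* was detected in 64.2% of dividing and 92.5% of non-dividing cells with levels of 5.51 and 16.9 (3.07-fold lower, log2 -1.62, or -0.89 when at most 3 reads per cell were counted), and *Ccnd1* had levels of 17.6 and 27.9. The E-type cyclins, which act at entry into S phase, were higher: *Ccne2* was detected in 11.2% and 0.584% of cells (log2 4.14) and *Ccne1* in 11.9% and 5.63%. *Ccne2* passed the filter on dividing cells alone and so had to differ. *Cdk2*, their partner, had a log2 ratio of 1.32, and *Cdk4* 0.53. Among E2F and pocket protein genes, 5 of 12 tested (41.7%) were called higher, beside 12.5% of all tested genes. They were led by the repressors *E2f8* and *E2f7* (log2 5.83 and 5.39). *E2f1* stood at 3.25, the pocket protein gene *Rbl1* at 2.78 and the E2F partner *Tfdp1* at 1.37. Of the 12, 4 passed the filter on dividing cells alone and so had to differ, and the share of 41.7% was fixed in part by this. The retinoblastoma gene *Rb1* had similar levels, 0.701 and 0.636.

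CDK inhibitors and p53 targets had a median log2 ratio of -0.42. Of 18 tested genes, 2 (11.1%) were called higher and 6 (33.3%) lower, beside 12.5% and 8.92% of all tested genes. The 2 higher genes were INK4 inhibitors of CDK4, *Cdkn2c* (41.1% and 10.7% of cells) and *Cdkn2d* (17.8% and 4.25%). *Cdkn2d* passed the filter on dividing cells alone and *Cdkn2b* on non-dividing cells alone. The lower genes were the INK4 gene *Cdkn2b* (log2 -1.74), *Cdkn2a* (levels 0.928 and 1.97), the p53 targets *Trp53inp1* (2.27 and 4.53) and *Gadd45a* (1.24 and 2.49), and the antiproliferative genes *Btg1* and *Btg2* (log2 -0.92 and -0.97). *Cdkn1a*, encoding p21, was present in 52.3% of dividing cells and 64.0% of non-dividing cells, with a log2 ratio of -0.56 that did not reach the limit. *Cdkn1b*, encoding p27, had levels of 1.92 and 1.32. Dividing cells therefore still held transcripts of several inhibitors.

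Of the tubulins and stathmins, 7 of 10 tested genes (70%) were called higher, beside 12.5% of all tested genes. *Tuba1b* stood at 12.7 and 2.39 reads, *Tubb5* at 9.07 and 2.46 and *Stmn1* at 2.18 and 0.428. Of the 7, *Tuba1c* passed on dividing cells alone. The neuron-associated *Tubb2b* (1.68 and 1.61) was not called. Reads of near-identical tubulin genes cannot be assigned with certainty. Of 22 replication-dependent histone genes only 3 were tested: *Hist1h1e*, which passed on dividing cells alone, was higher (8.52% and 1.65% of cells), and *Hist1h2bc* and *Hist1h1c* were lower (11.4% against 27.2%, and 17.8% against 35.3%). Their median log2 ratio of -1.10 turned to 0.59 with the rule on thinned reads and to 0.54 with at least 2 reads of both genes of the rule. Most transcripts of these genes carry no poly(A) tail, and the capture used poly(A).

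**Figure D3:**
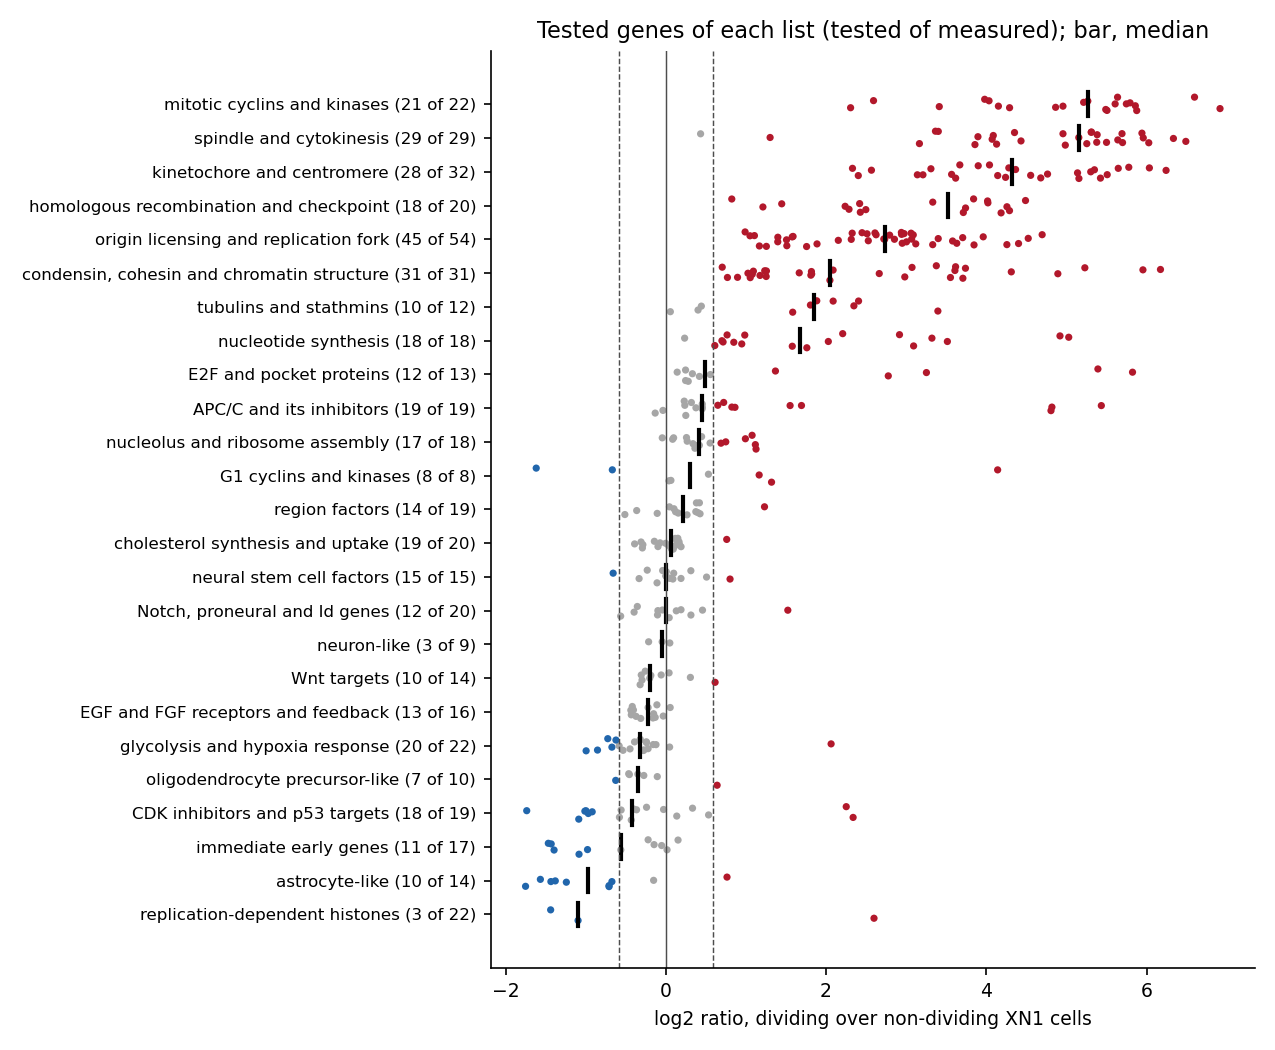
Log2 ratios, dividing over non-dividing XN1 cells, for the tested genes of each list with 3 or more tested genes, ordered by the list median (black bar). Red and blue points are genes called higher and lower at 1.5-fold (dashed lines), gray points are not called, and brackets give tested of measured genes; the medians run from 5.27 for mitotic cyclins and kinases to -1.10 for replication-dependent histones, which rests on 3 genes and turns positive in 2 other settings.

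Of 15 tested identity genes of neural stem cells, 1 was called higher and 1 lower, against 12.5% and 8.92% of all tested genes. Their median log2 ratio was 0.01, as was that of all tested genes. *Sox2* was detected in 52.7% and 53.7% of cells and *Nes*, encoding nestin, in 62.9% and 51.9%. *Vim*, *Fabp7*, *Nfia* and *Nfib* each had a log2 ratio between -0.23 and 0.10. The glial and stem cell factor *Sox9* was lower, at levels of 3.72 and 5.87, and *Pax6*, a factor of neural progenitors, was higher, with shares of 17.5% (14.7 to 20.5%) and 9.98% (8.67 to 11.4%).

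Factors that mark positions along the neural axis were found in dividing and in non-dividing cells, and 13 of 14 tested genes were not called, beside 78.6% of all tested genes. *Otx2*, of forebrain and midbrain, was detected in 6.96% of dividing cells (5.19 to 9.10%) and 6.59% of non-dividing cells (5.51 to 7.80%). *En2*, of the midbrain and anterior hindbrain, gave 13.6% and 12.6%, and *Hoxa5*, of the posterior hindbrain and spinal cord, 22.9% and 21.3%. *Irx3* gave 12.8% and 17.4%, and *Nkx2-2*, a ventral factor, 8.95% and 8.28%. In the other lines, thinned in the same way, *Otx2* was detected in 0.0887% of XN4 cells, *En2* in 0.266% of XN4 and 0.792% of CN4 cells, and *Hoxa5* in 0.207% of XN4 cells, and these levels serve as a background for the XN1 shares. *Pbx3*, a HOX cofactor, was the gene called higher (15.8% and 6.90%). At least 1 read of *Otx1*, *Otx2*, *En1* or *En2* was found in 45.3% of dividing cells, and 39.5% of those also held a read of *Hoxa3*, *Hoxa4* or *Hoxa5*, against 35.1% of the other dividing cells. In non-dividing cells these values were, in the same order, 39.7%, 32.4% and 31.5%. *Hoxa3* and *Hoxa5* overlap on 1 strand, so that their reads may be shared.

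Among cells with a read of a given factor, the share of dividing cells was compared with that of all cells. Of all 2587 thinned cells in both groups, 27.2% were dividing (25.5 to 29.0%). The share was 28.3% of 173 *Otx2* cells, 28.8% of 333 *En2* cells, 28.6% of 563 *Hoxa5* cells and 29.2% of 500 *En1* cells, and the intervals of these overlap one another and that of all cells. The share was 34.4% of 273 *Otx1* cells (28.8 to 40.4%), 34.96% of 226 *Hoxa3* cells (28.8 to 41.6%) and 21.6% of 417 *Irx3* cells (17.7 to 25.8%). It was 39.6% of 311 *Pax6* cells (34.1 to 45.2%) and 46.1% of 241 *Pbx3* cells (39.6 to 52.6%). Of 12 tested Notch, proneural and Id genes, 1 was called higher and 0 lower, beside 12.5% and 8.92% of all tested genes. Their log2 ratios ran from -0.56 to 1.52, and 8 more measured genes were not tested. In the further XN1 cells described below, 2 were called higher and 1 lower. The Notch target *Hes1*, the receptor gene *Notch1* and *Id3*, an inhibitor of differentiation, had log2 ratios between -0.04 and 0.19.

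Of the 16 genes of EGF and FGF receptors and feedback, all had a read in both groups, and 14 had a ratio below 1. None of 13 tested genes was called, with a median log2 ratio of -0.22, while 78.6% of all tested genes were not called either. In the further XN1 cells described below, 2 genes of this list were called lower. The receptor gene *Egfr* was detected in 32.1% and 32.0% of cells. Of 10 tested Wnt pathway genes 1 was called, beside 12.5% higher and 8.92% lower over all tested genes. It was *Tcf7*, which passed on dividing cells alone, at shares of 7.67% and 4.94%, and in the further XN1 cells its log2 ratio of 0.36 was under the limit. *Axin2*, a direct target of Wnt signaling, had levels of 0.182 and 0.217. Immediate early genes, which respond to growth factors and stress, had a median of -0.56. Of 11 tested genes 5 (45.5%) were lower, beside 8.92% of all tested genes, and 15 of 17 measured genes had a ratio below 1. *Fos* was detected in 9.80% and 19.2% of cells, *Junb* in 7.67% and 16.9%, and *Ier3* in 13.2% and 26.2%. *Jun*, *Egr1* and *Myc* were not called, with log2 ratios from -0.15 to 0.02.

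Of 17 tested nucleolar genes, 6 (35.3%) were called higher (median log2 0.42), beside 12.5% of all tested genes. They were led by *Gar1*, *Nop58* and *Dkc1* at log2 1.08 to 1.13, which act in the modification of ribosomal RNA. *Gar1* passed on dividing cells alone. Of 20 tested glycolysis and hypoxia genes 5 (25%) were lower and 1 (5%) higher (median -0.32), beside 8.92% and 12.5% of all tested genes. *Aldoa* had levels of 6.89 and 11 and the hypoxia target *Bnip3* 0.755 and 1.5, while *Ndrg1*, which passed the filter on dividing cells alone, was higher (0.333 and 0.0797). Of the 19 tested cholesterol synthesis genes 18 were not called, beside 78.6% of all tested genes, with *Hmgcs1* at 11.7 and 12.5. Both tested nuclear noncoding RNAs were lower, *Malat1* at 35.5 and 59.8 and *Neat1*, which passed on non-dividing cells alone, in 4.55% and 10.8% of cells.

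In the all-read table, ribosomal protein genes took a median of 5.89% of the reads of dividing cells and 5.11% of those of non-dividing cells. Of 94 tested ribosomal protein genes, 83 had a ratio above 1, and none reached 1.5-fold. Mitochondrial genes took 12.5% and 15.7% of reads. All 13 mitochondrial genes had a ratio below 1, the lowest for *mt-Nd5* at log2 -0.42. These genes were absent from the normalized table, and these shares were not thinned.

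The 20 largest ratios among genes with a mean share of at least 10% ran from *Nek2* to *Nusap1*, a 49.9-fold difference, and most were genes of the spindle, the kinetochore or mitotic kinases. Their shares in non-dividing cells stayed at 3.40% or less, so that all 20 passed the filter on dividing cells alone. The list includes *Depdc1a* (108-fold, log2 6.76, or 5.53 with no thinning), *Kif2c* (51.8-fold), *Pimreg* (56.0-fold) and *Cenpe* (50.1-fold). The 20 smallest ratios ran from *Cxcl1* (9.80-fold lower) to *Ackr4* (2.72-fold lower). Of these, 11 had a share under 10% in dividing cells and passed the 10% filter through non-dividing cells alone, *Cxcl1*, *Ccl2* and *Cd14* among them. They held the chemokine genes *Cxcl1*, with shares of 4.40% and 17.2%, and *Ccl2*, with 5.82% and 16.4% (6.27-fold lower). *Cd14*, a receptor for bacterial lipids (4.26-fold), the cytokine *Tslp* (3.50-fold), the stress-responsive factor *Cebpd* (2.88-fold) and *Epas1*, a hypoxia factor (2.81-fold), were lower too. *Mxd4*, a MAX partner that opposes MYC, was lower with broad expression, in 32.0% of dividing cells and 75% of non-dividing cells (levels 1.5 and 5.58). *Abca1*, the cholesterol exporter (3.61-fold), *Kdm7a*, a histone demethylase (3.23-fold), and *Agt*, angiotensinogen (2.96-fold), were others. With at most 3 reads per cell the log2 ratios of *Cxcl1* and *Ccl2* were -2.38 and -1.82, and with at least 2 reads of both genes of the rule -4.21 and -3.56, beside -3.29 and -2.65. These 40 genes were picked by their ratios, so the separation of the groups in the plot of shares follows from the choice.

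**Figure D4:**
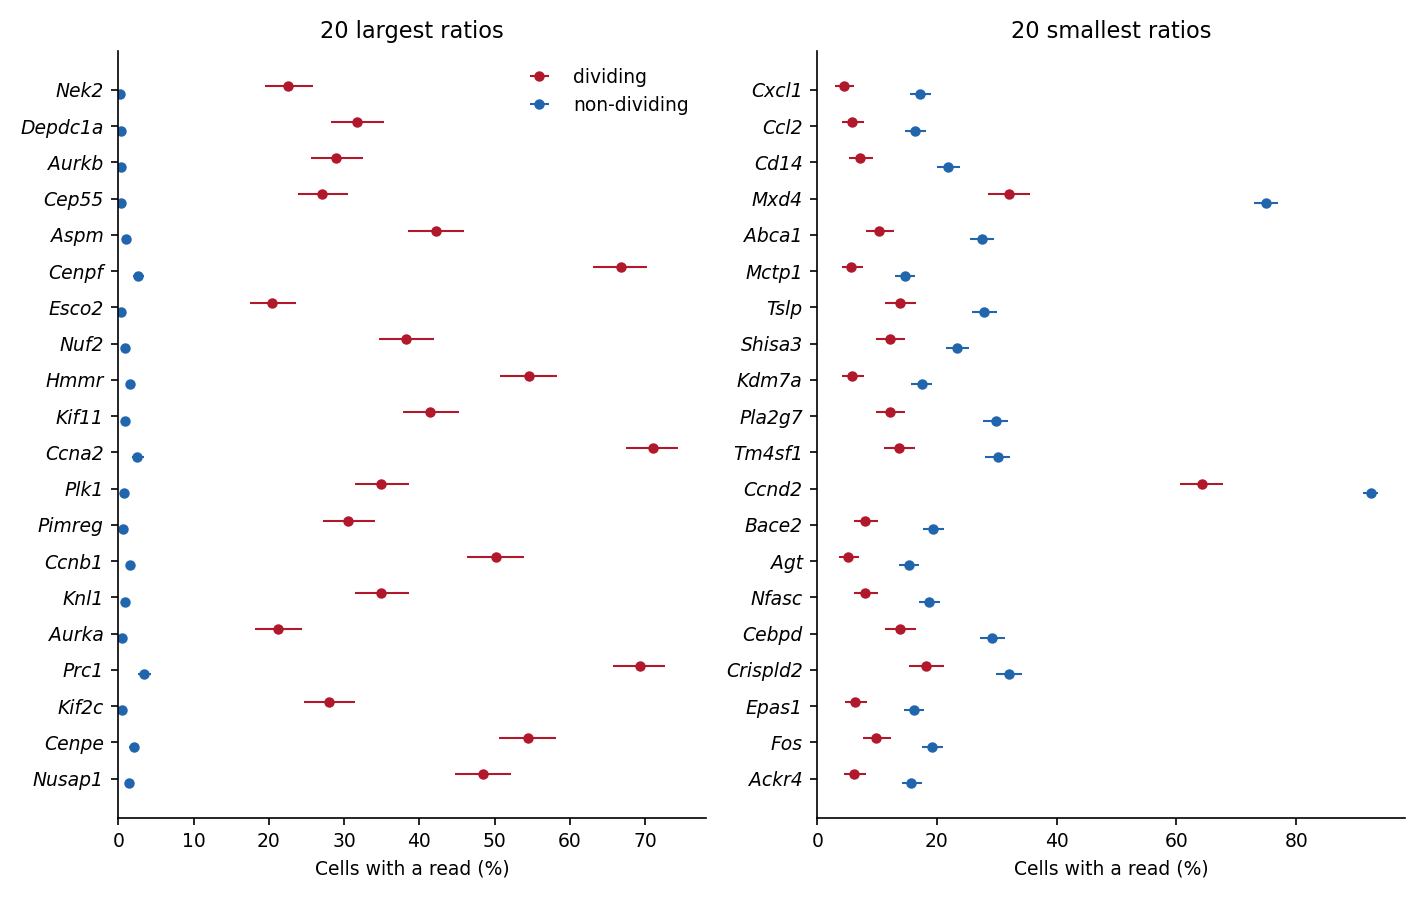
Percentage of thinned XN1 cells with a read for the 20 largest (left) and 20 smallest (right) ratios, in dividing (red) and non-dividing (blue) cells. Bars are exact 95% intervals covering counting error; *Cenpf* stands at 66.8% and 2.60%, and *Cxcl1* at 4.40% and 17.2%.

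Of the 48 genes named by the rules on size and region, 19 overlap another measured gene on the genome (GRCm38, GENCODE M21), and for 2 of these the overlap is on the same strand. *Nek2* (chr1:191821444-191833050, plus strand), *Prc1* (chr7:80294450-80316259, plus), *Ccl2* (chr11:82035571-82037453, plus), *Ccnd2* (chr6:127125162-127152193, minus) and *Mxd4* (chr5:34173883-34187720, minus) have a partner on the other strand. The counting is not stated to use strand, and reads of such partners cannot be told apart. *Cxcl1* (chr5:90891241-90893115, plus), *Mki67* (chr7:135689784-135716361, minus) and *Top2a* (chr11:98992943-99024189, minus) have none.

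Markers of other cell types were checked over whole lists, since glial and other cells could be present. Of 14 astrocyte genes 10 were tested, and 8 (80%) were lower and 1 (10%) higher in dividing cells (median log2 -0.97). Over all tested genes, 8.92% were lower and 12.5% higher. *Apoe* was detected in 33.1% and 57.1% of cells, *Slc1a2* in 15.8% and 30.5%, *Aldh1l1* in 14.1% and 19.4%, and *S100b*, which passed on non-dividing cells alone, in 3.27% and 9.24%, while *Gja1* was higher (30.5% and 19.4%) and *Gfap* and *Aqp4* were too rare to test. Summed over the list, a dividing cell held a median of 8 reads (quartiles 6 to 11) and a non-dividing cell 12 (8 to 17). Many of these genes are also expressed in neural stem cells. The oligodendrocyte precursor list gave medians of 9 and 12 reads, with *Olig1* lower (76.8% and 87.5% of cells), *Olig2* at 7.83 and 9.48, and *Pdgfra* higher (9.38% and 7.12% of cells). In the further XN1 cells the log2 ratio of *Pdgfra* was 0.44, under the limit. Neuron genes gave a median of 2 reads in both groups, and none of 3 tested genes was called. The part of glial transcripts in the lower genes was not tested.

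Dividing cells varied among themselves. A read of *Ccnb1*, *Plk1* or *Cdc20*, transcripts of late G2 and mitosis, was found in 503 (71.4%) of the 704 thinned dividing cells and in 4.14% of non-dividing cells. In the other mitosis genes, these 503 cells held a median of 64 reads and the remaining 201 cells 26 reads. In replication genes they held fewer, 14 reads (quartiles 9 to 21.5) against 19 (7 to 28). Over the replication list, 14 of 51 genes were lower and 2 higher in cells with a late mitotic read (median log2 -0.26), while 28 of 29 spindle genes were higher (median 1.25). The cells were split by mitotic transcripts, so that genes known to accompany them had to be higher. Of all 8111 genes tested in this comparison, 6.93% were higher and 6.74% lower. *Mcm6* was detected in 26.8% of cells with and 44.8% without a late mitotic read (log2 -1.03), *Mcm3* in 22.7% and 37.8%, and *Pcna* in 53.7% and 59.2%. *Aspm* was detected in 52.7% and 15.9%, and *Cdk1* in 72.8% and 48.3%. Across the 704 dividing cells, summed mitosis and replication reads had a Spearman rho of -0.13, and in the 1883 non-dividing cells 0.16, both given as descriptions over cells of 1 library.

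The rule was applied to 10547 further XN1 cells that are in the all-read table but not in the normalized one. It chose 2241 of them (21.2%, 20.47 to 22.04%). At 3200 reads, 2007 dividing and 4926 non-dividing cells gave 933 of 8104 tested genes higher (11.5%) and 641 lower (7.91%). Over 7955 genes tested in both sets of cells, 781 of the higher genes were shared, which is 79.3% of 985 in the first set and 85.7% of 911 in the further cells. Of the lower genes 477 were shared, 67.1% of 711 and 76.3% of 625. None was called in the opposite direction. The further cells come from the same library and are not a replicate culture.

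In the other lines the same rule gave dividing shares at 3200 reads of 15.1% in XN4 (13.9 to 16.4%), 17.5% in KN1 (16.3 to 18.8%) and 39.3% in CN4 (37.6 to 41.1%), beside 18.7% in XN1. The order was CN4, XN1, KN1 and XN4; the intervals of XN1 and KN1 overlap, as do those of KN1 and XN4 in part. Each line is 1 library, and differences between lines were not tested. For 74 mitosis genes tested in all lines, the median log2 ratio was 4.62 in XN1, 5.13 in XN4, 4.08 in CN4 and 1.99 in KN1. For 27 replication genes it was 2.94, 2.40, 1.48 and 0.72 in the same order. The same rule and filter were used in every line, so the direction and size of these medians were fixed in part by them. The KN1 library stood apart with a median of 833 genes per cell, against 2257 to 2824 in the others. In KN1, *Cenpf* was detected in 12.2% of non-dividing cells, against 2.60% in XN1, 1.55% in XN4 and 5.40% in CN4.

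**Figure D5:**
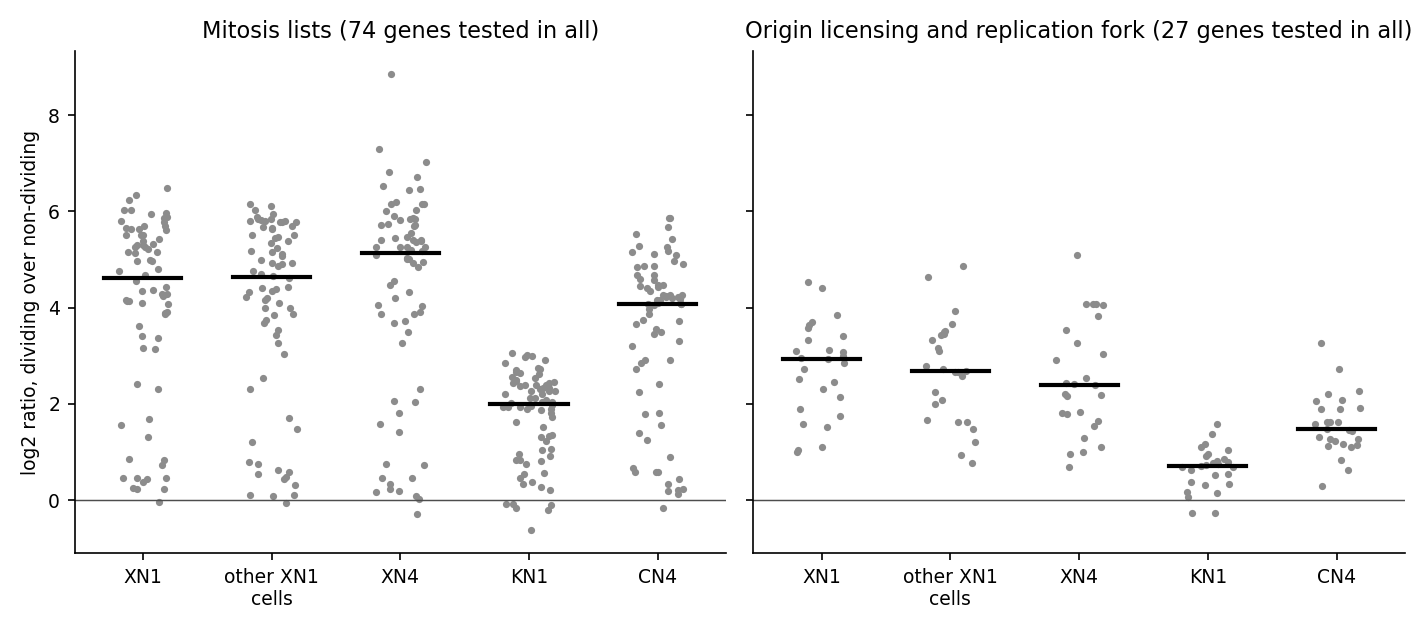
Log2 ratios, dividing over non-dividing cells, in XN1, the further XN1 cells and the other 3 lines, for 74 mitosis (left) and 27 replication genes (right) tested in all of them. Points are genes and bars medians; the mitosis median is 4.62 in XN1 and 1.99 in KN1.

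For single genes, *Ccnd2* was lower in dividing cells of XN1 (log2 -1.62), XN4 (-1.71) and CN4 (-0.85), and was not called in KN1 (-0.51). *Mxd4* was lower in all 4 lines (-1.89, -1.31, -2.08 and -1.55 in XN1, XN4, KN1 and CN4). *Ccnd1* was lower in XN1 (-0.67), KN1 (-0.67) and CN4 (-0.78) and not in XN4 (0.23), where its levels of 1.81 and 1.54 were far under the 17.6 and 27.9 of XN1. *Cxcl1* had a log2 ratio of -0.65 in XN4, and *Ccl2* 0.08. Among genes tested in both lines, the XN1 higher genes shared with XN4 were 603, or 66.8% of 903 in XN1 and 64.3% of 938 in XN4. With CN4 they were 509, or 53.02% of 960 and 87.0% of 585, and with KN1 249, or 40.4% of 617 and 67.3% of 370. Since the rule was the same in each line, genes known to accompany its 2 genes had to be shared. Over all genes tested in each line, 12.5% were higher and 11.2% lower in dividing cells of XN4, 8.52% and 5.51% in KN1, and 7.72% and 6.61% in CN4. Of the XN1 higher genes, 6 were lower past the limit in XN4, 3 in KN1 and 0 in CN4, and of the XN1 lower genes 0, 2 and 0 were higher past it. Among genes tested in both lines, the XN1 lower genes shared with XN4 were 221, or 43.1% of 513 in XN1 and 37.4% of 591 in XN4. With CN4 they were 216, or 38.8% of 557 and 50.1% of 431, and with KN1 45, or 19.0% of 237 and 20.5% of 220.

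Few cell indexes were shared between the normalized tables: XN1 had 17, 21 and 17 in common with XN4, KN1 and CN4. Libraries were prepared separately and no cells were shared by design. No doublet caller was run, and the part of doublets was not tested. Without the 5% deepest XN1 cells, 19.7% of cells were dividing and 1042 genes were higher.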

How the data were processed

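Single cells of 4 NSC lines were captured on a BD Rhapsody cartridge, and poly(A) transcripts were sequenced as 1 library per line (samples were grouped by the line named in the labels). The authors deposited read counts per gene and cell for XN1, made with the BD Rhapsody pipeline 1.12.1 on GRCm38 and GENCODE M19 with intronic reads and refined cell calling. They also deposited natural log values, ln(1 + 10,000 × reads / total), for a random part of the cells of each line, made with Seurat 4.3.0 without ribosomal protein and mitochondrial genes, per the labels and methods. The natural log values were turned back into reads: all were whole within 0.01, and none differed from the XN1 read counts. The all-read tables of XN4 and CN4 were not used. XN1 held 19271688 reads in 3905 cells (median 4637, range 784 to 11916), and the XN1 counts cover 14452 cells.

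Cells were thinned to 3200 reads with a fixed seed (Python 3.11.15, numpy 2.4.6, scipy 1.17.1). Ratios compared mean reads per 10,000. Intervals are exact: Clopper-Pearson at 95% for shares, and a conditional binomial interval for ratios. They cover counting error only, since reads share molecules. The scripts were tested on simulated data. No test across samples was made. Members and gene lists were chosen with earlier results of these data known. Named genes were the 2 rule genes, genes of the lists (those with most cells first, and those against the median of their list), the 20 largest and 20 smallest ratios among genes with a mean share of 10%, and *Otx2*, *En2*, *Hoxa5*, *Pax6*, *Irx3* and *Nkx2-2*; *Pbx3* and others were added with their values known. Alternatives varied thinning, the rule, the total, the filters and the cells.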

Additional observations from a re-analysis of the deposited data

Results flagged for a closer look

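Among the genes of the lists and those named by size, 2 genes were called in opposite directions in XN1 and another line. In the comparison of dividing with non-dividing cells, *Ndrg1*, a stress- and hypoxia-responsive gene, pointed in opposite directions in XN1 and XN4. It was higher in dividing XN1 cells (log2 2.06, 8.66% against 2.23% of cells, on 75 and 48 reads) and lower in dividing XN4 cells (log2 -1.54, 4.49% against 10.9%). In XN1 it passed the filter on low values through the dividing cells alone, and in the further XN1 cells it was below that filter and was not tested. *Trp53inp1*, a p53 target, was lower in dividing XN1 cells (log2 -0.996, 38.5% against 62.7%) and higher in dividing KN1 cells (log2 0.66, 9.20% against 5.37%). In XN4 and CN4 it was lower as well, at -1.15 and -0.72. With 1 library for each line, neither difference between lines was tested.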

How the results depend on the processing

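No paired analysis was possible because each line has 1 library and the comparison is between cells of the same library. For the counts of 1010 higher and 720 lower genes, a filter on the mean share of 10% gave 635 and 465 genes, a filter of 1% gave 1551 and 1488, and a 2-fold limit gave 505 and 159. The share of dividing cells (20.8%) was 18.7% with the rule on thinned reads, 16.0% with at least 2 reads of both genes and 38.0% with either gene. In the other settings run the counts stayed within 1.5 times, from 802 to 1224 higher and 586 to 895 lower. These included no thinning, thinning to 2000 reads, 10 groups of like depth, the further XN1 cells and, chosen after seeing the data, a comparison with non-dividing cells low in mitosis and replication reads (1050 and 761). Leaving cell cycle genes out of the total moved the median of all tested genes from 0.01 to 0.06. The mitosis and replication medians ranged from 4.26 to 4.54 and from 2.69 to 2.88. The replication-dependent histone median, over few genes (-1.10), became 0.59 with the rule on thinned reads and 0.54 with at least 2 reads of both genes; the cause was not tested. Of the recomputed ratios of named genes, 476 stayed within their counting interval, 30 left it and none of a called gene changed direction; the uncalled *En2* (0.12) was at -0.012 with no thinning and -0.013 in the further XN1 cells; of the list medians, 310 stayed and 22 moved. Ratios of *Aurkb*, *Nek2*, *Cep55*, *Depdc1a*, *Cenpf*, *Nuf2*, *Pimreg* and *Plk1* moved by over 1.5 times in some settings and were at log2 5.43 or more in those. Lower genes moved too: *Cxcl1* (log2 -3.29) lay between -4.21 and -2.38, and *Ccl2* (-2.65) between -3.56 and -1.82. *Ccnd2* (-1.62) was at -0.89 with at most 3 reads per cell. *Anapc7*, *Pdk1*, *Vegfa* and *Rrp1b* were called in XN1 and were under the limit in the further XN1 cells. Depth limits rare genes: those with a read in few thinned cells were not tested.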

Other observations

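The chemokine gene *Cxcl1* was unevenly spread among non-dividing XN1 cells. It was detected in 323 of them, with up to 55 reads in a thinned cell. Of these 323 cells, 52.3% also held *Ccl2*, against 8.91% of the other non-dividing cells. *Cd14* was found in 45.2% and 17.1%, *Cebpd* in 53.9% and 24.2%, and *Tslp* in 50.2% and 23.3%, whereas *Mxd4* was found in 74.6% and 75.1%. Of all thinned cells with a *Cxcl1* read, 8.76% were dividing (6.03 to 12.2%), and of those with a *Ccl2* read 11.7%. In the 31 dividing cells with *Cxcl1*, at most 8 reads of it were counted, and 22.6% held *Ccl2*, against 5.05% of the other dividing cells. The same shares were 22.6% and 6.39% for *Cd14*, 35.5% and 12.8% for *Cebpd*, 16.1% and 13.7% for *Tslp*, and 48.4% and 31.2% for *Mxd4*. These pairs were chosen after their values were seen, and the values describe 1 library.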
